A study of Mus musculus with 16 samples.

Results

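The genes described here are those whose RNA differed between Smarcad1 knockout (KO) and wild type (WT) colon during colitis, taken as every row of the authors' table for that comparison. The table holds 56 genes, of 5171 genes with group means in the 4 tables of the series. Of the 56 genes, 36 had a higher mean in KO colitis and 20 a lower one. The authors chose these rows by testing the same contrast, so the KO minus WT differences in colitis are given as a description and without a test.

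RNA-seq was performed on whole tissue from the middle part of the colon of male C57BL/6 mice. KO mice carried Smarcad1 fl/fl alleles and Vil1-cre, a transgene that puts Cre recombinase under the villin promoter, which is active in intestinal epithelial cells and not in the other cells of the colon wall. Cre removes a block of internal exons whose loss shifts the reading frame, so that a shortened transcript can still be read. All groups shared the strain and an enriched microbiota, passed on by bedding from mice of a second facility. Control groups held 3 WT and 3 KO libraries, and colitis groups 5 of each genotype. Mice with colitis had received 1% dextran sodium sulphate (DSS), which injures the colon lining, for 15 days, and control mice were untreated. The labels do not give the age of the mice.

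Smarcad1 is an ATP-dependent chromatin remodeller of the SNF2 family, known for a role in keeping silent chromatin and histone H3K9 methylation in place. The colon lining combines absorptive enterocytes, which carry transporters and detoxifying enzymes, with goblet and hormone cells, above a stroma of fibroblasts, muscle, nerves, vessels and immune cells. In DSS colitis the lining is lost in places, leukocytes enter the tissue and fibroblasts lay down matrix.

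Values are the authors' mean of log2 RPM (reads scaled to the total of the library) over the libraries of a group, without correction for gene length. Single libraries were not analysed here, so no spread between mice can be given, and a mean driven by 1 library cannot be told from a shared shift. "Rose" and "fell" are used below only for genes that the authors list for colitis against control in that genotype, and all other differences are given as values. The geometric mean library size ranged from 8.005 to 10.1 M reads. A mean of 3 reads a library, the level below which no fold is given, lay between −1.75 and −1.42 log2 RPM. In a whole tissue, fewer cells of a type and less RNA in each cell cannot be told apart. The tissue was checked against marker genes. The colon enterocyte markers Car1, Slc26a3, Aqp8, Car4 and Guca2a had means above 9 log2 RPM in all 4 groups. Of the small intestinal markers 2 have means, and these did not separate the tissues. The fatty acid carrier Fabp2 had 9.17 in WT control, and the ileal bile acid carrier Fabp6 had 1.22 in WT control and 3.11 in KO colitis.

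The targeted gene had a mean of 5.77 log2 RPM in WT control, 4.59 in KO control, 5.68 in WT colitis and 4.55 in KO colitis. KO thus had 44.1% of the WT level in control and 45.6% in colitis, and Smarcad1 itself was not listed for colitis in either genotype. Transcript from cells without Cre and shortened transcript from the epithelium cannot be told apart in these means.

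The start-site windows of 6 of the genes that were higher in KO without treatment as well are shown first, since they came from genes that were at very different levels in WT. The sequences are RefSeq windows (GRCm38.p6) of 250 bases before to 50 bases after an annotated start, on the strand of the gene. A window whose annotated start lay within 1000 bases of the gene start was found for 36 of the 56 genes. Mt1 (metallothionein 1, chr8:94178839-94179138, plus strand) has the metal response element core in capitals, Bglap3 (an osteocalcin gene, chr3:88372692-88372991, minus strand) a TATA box, and Gsta3 (a glutathione S-transferase, chr1:21240335-21240634, plus strand) the antioxidant response element core. In Aplp1 (chr7:30445533-30445832, minus strand), Kirrel2 (chr7:30457466-30457765, minus strand) and Treh (chr9:44672983-44673282, plus strand) the capitals mark CpG.
Mt1: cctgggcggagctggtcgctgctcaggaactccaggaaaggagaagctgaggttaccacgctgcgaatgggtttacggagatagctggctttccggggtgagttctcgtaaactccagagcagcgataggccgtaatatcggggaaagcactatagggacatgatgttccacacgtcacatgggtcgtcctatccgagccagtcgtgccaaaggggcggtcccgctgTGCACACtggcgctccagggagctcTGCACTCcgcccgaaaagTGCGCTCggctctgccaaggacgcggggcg
Bglap3: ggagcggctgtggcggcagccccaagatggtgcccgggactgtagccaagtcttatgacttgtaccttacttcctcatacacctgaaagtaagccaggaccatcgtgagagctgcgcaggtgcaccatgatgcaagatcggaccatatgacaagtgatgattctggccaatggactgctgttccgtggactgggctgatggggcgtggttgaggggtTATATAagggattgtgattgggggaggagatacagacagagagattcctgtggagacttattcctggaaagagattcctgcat
Gsta3: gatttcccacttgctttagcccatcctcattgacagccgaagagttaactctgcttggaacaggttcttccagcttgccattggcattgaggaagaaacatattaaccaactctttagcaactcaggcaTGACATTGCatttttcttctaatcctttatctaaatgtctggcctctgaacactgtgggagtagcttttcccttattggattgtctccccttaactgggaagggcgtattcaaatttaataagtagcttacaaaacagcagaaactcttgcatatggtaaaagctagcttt
Aplp1: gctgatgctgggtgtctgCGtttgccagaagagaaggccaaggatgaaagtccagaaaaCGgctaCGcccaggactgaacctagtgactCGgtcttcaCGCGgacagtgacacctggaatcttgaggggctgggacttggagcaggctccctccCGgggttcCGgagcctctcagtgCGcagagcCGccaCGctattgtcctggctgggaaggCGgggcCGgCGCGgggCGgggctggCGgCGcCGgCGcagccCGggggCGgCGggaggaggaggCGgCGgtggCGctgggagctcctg
Kirrel2: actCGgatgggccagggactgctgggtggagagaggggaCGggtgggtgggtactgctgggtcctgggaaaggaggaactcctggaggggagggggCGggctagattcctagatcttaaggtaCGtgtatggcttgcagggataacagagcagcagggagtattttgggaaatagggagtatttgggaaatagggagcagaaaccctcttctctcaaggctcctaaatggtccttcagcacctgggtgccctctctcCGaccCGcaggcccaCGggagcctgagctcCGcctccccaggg
Treh: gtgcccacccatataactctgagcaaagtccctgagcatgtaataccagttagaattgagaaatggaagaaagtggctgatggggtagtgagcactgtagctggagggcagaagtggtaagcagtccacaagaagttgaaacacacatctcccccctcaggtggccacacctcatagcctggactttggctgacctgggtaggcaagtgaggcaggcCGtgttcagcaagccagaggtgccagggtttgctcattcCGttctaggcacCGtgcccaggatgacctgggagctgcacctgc

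The metal response element core (TGCACNC or TGCGCNC, both strands) occurred 3 times in the Mt1 window, at −23, 3 and 21 from the annotated start. It was found in 25.7% of all 32851 windows, in 33.7% of the windows of genes with means and in 12 of the 36 member windows. The antioxidant core (TGACNNNGC, both strands) occurred once in Gsta3, at −121, in 12.4% of all windows, in 14.6% of those of genes with means and in 3 of the 36. A TATA box (TATAAA or TATATA, both strands) lay at −33 in Bglap3, in 17.1% of all windows, in 12.4% of those of genes with means and in 2 of the 36. Aplp1 had 26 CpG in its window, Kirrel2 8 and Treh 3, against a median of 7 in all windows, of 17 in the 3340 windows of genes with means and of 9 in the member windows. Windows rich and poor in CpG were thus found among genes that were higher in KO. A match is a run of letters and was not tested as a binding site.

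Levels of the members spanned a wide range. In WT colitis the 56 means ran from −2.71 to 9.72 log2 RPM with a median of 5.04, and in KO colitis from 1.18 to 10.52 with a median of 5.14. Only 2 genes, Kirrel2 and Treh, were at or under 3 reads a library, in both WT groups and in neither KO group. Per kilobase of merged exons (GENCODE M21, 55 genes matched), Car2 was the highest in KO colitis at 9.24 log2 RPKM, followed by Mt1 at 8.03 and Dcxr at 7.13, and Adamtsl2 was the lowest at −1.67.

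The size of the difference in colitis varied widely. It was at least 1 log2 unit in 29 of the 56 genes, 22 higher and 7 lower, which is 51.8% of them, where 4.39% of the 5171 genes reached that size. Since the rule used this contrast, nothing is read from that gap. The members nearest to no difference were Plin3 (−0.22), a lipid droplet coat protein, Cpq (0.32), a carboxypeptidase, and Nipsnap2 (0.34), a mitochondrial protein. Conversely, 198 genes outside the table had a difference of at least 1, of which 55 were higher and 143 lower in KO. Size alone therefore did not decide which genes are in the table.

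**Figure D1:**
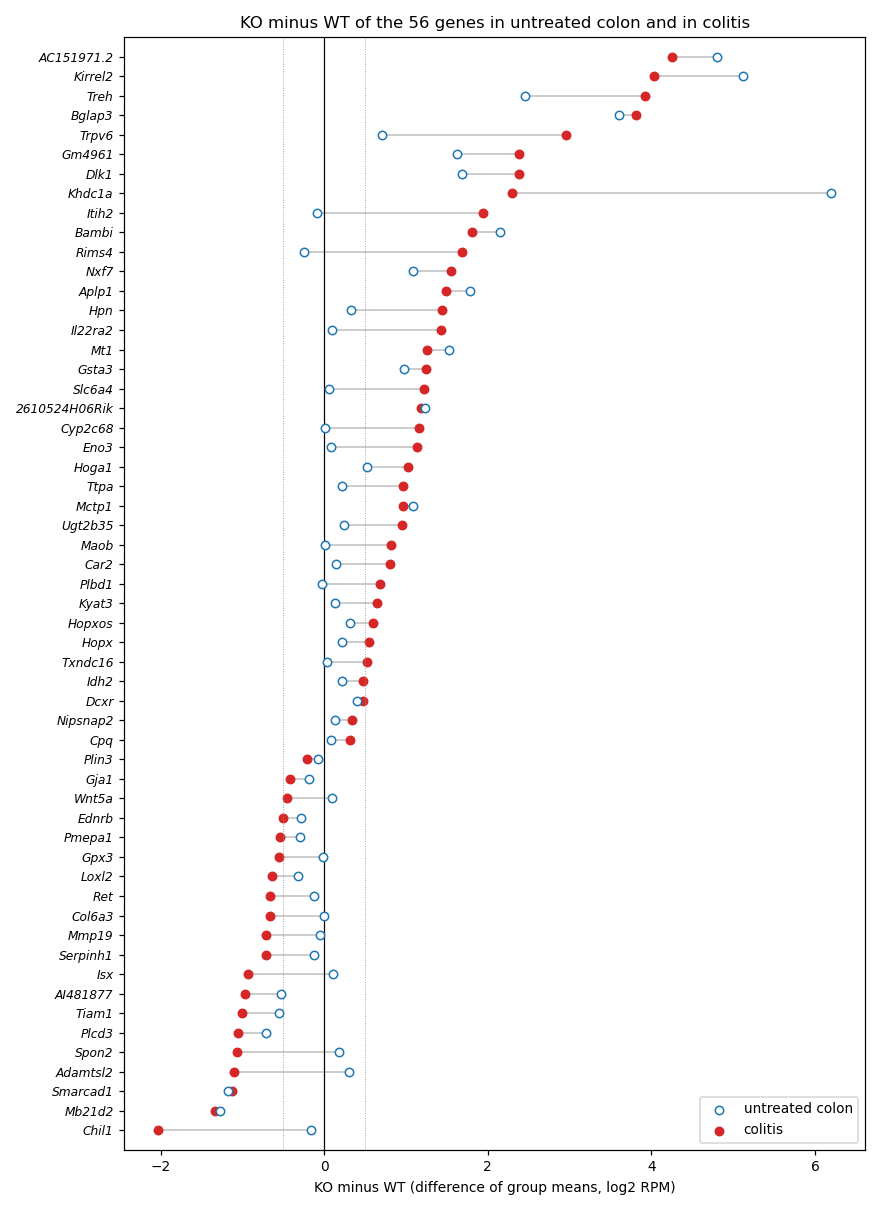
KO minus WT difference of group means (log2 RPM, x axis) for each of the 56 genes (y axis), in untreated colon (open blue circles, 3 and 3 libraries) and in colitis (filled red circles, 5 and 5 libraries). Dotted lines mark 0.5, and no error can be drawn from group means. In 49 genes both circles lie on the same side of 0, a share that was not counted over all genes. In 21 the untreated difference is at least 0.5.

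Whether the difference was already there without colitis was asked from the control libraries, which the rule did not use. The KO minus WT difference had the same sign in untreated colon in 49 of the 56 genes, 33 of the 36 higher and 16 of the 20 lower ones. Of all 5171 genes, 2449 were higher in KO colitis and 2635 in untreated KO. The share of all genes with the same sign in both was not counted, so nothing is read from the 49. The untreated difference was at least 0.5 in 21 genes, all in the same direction as in colitis (37.5%, with 7.5% of the 5171 genes that far apart in either direction). In 27 genes it was under 0.25. The authors list 12 of the 56 genes for untreated colon too. The 21 genes are described first and the other 35 after them, a division at 0.5 that was made after the values had been seen.

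Of these 21 genes, 5 are best known from other tissues, namely Bglap3, Khdc1a, Kirrel2, Aplp1 and Nxf7. Bglap3 codes for an osteocalcin, a bone matrix protein made by osteoblasts. It had means of 4.40 in WT control, 8.01 in KO control, 3.73 in WT colitis and 7.54 in KO colitis, and was 12.2-fold higher in KO control and 14.0-fold higher in KO colitis. Both KO groups lay far above both WT groups, and Bglap3 fell by 0.47 with colitis in KO. The gene lies at chr3:88368616-88372743 and has close copies, Bglap and Bglap2, which were not analysed here. Reads shared between such copies are removed by unique mapping, so its level is uncertain.

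Khdc1a, a KH domain gene known from oocytes and early embryos, had the largest untreated difference of all 56 genes. In control the WT mean was −0.54 and the KO mean 5.66, a 73.6-fold difference. In colitis it was 5.25 in WT and 7.55 in KO, a 4.90-fold difference. Khdc1a rose with colitis in both genotypes, by 5.79 in WT and by 1.88 in KO, so the WT colitis mean came close to that of untreated KO. Its neighbour Khdc1c, of the same family and not in the table, had no read in any WT control library and 0.57 log2 RPM in KO colitis.

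AC151971.2 and Treh lie back to back on chromosome 9, with 994 bases between them. AC151971.2 (chr9:44670453-44672238, minus strand) is a long intergenic RNA, named BC049987 in GENCODE. Its mean was −1.09 in WT control, 3.72 in KO control, −0.15 in WT colitis and 4.10 in KO colitis. It was thus 28.0-fold higher in KO control and 19.0-fold higher in KO colitis. Treh codes for trehalase, a brush border enzyme that splits trehalose. Its KO means were 0.53 in control and 1.21 in colitis, while the WT means were under 3 reads. Against the floor, Treh was at least 4.87-fold higher in KO without treatment and at least 6.17-fold in colitis. The WT colitis mean of Treh corresponds to libraries with 0, 1, 1, 1 and 3 reads, in no known order.

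Kirrel2 and Aplp1 form a second pair, in tandem on chromosome 7 with 1998 bases between them. Kirrel2 codes for a membrane protein of the nephrin family, known from kidney, pancreas and nerve. Its KO means were 2.11 in control and 1.60 in colitis, and in WT control the mean corresponds to libraries with 1, 1 and 2 reads. Against the floor, KO exceeded WT at least 14.5-fold without treatment and at least 8.09-fold in colitis. Aplp1, an amyloid precursor-like protein of neurons, was well above the floor in every group, with 6.28 in WT control, 8.07 in KO control, 6.46 in WT colitis and 7.95 in KO colitis. Neither gene was listed for colitis. The Aplp1 difference was 1.78 in control and 1.49 in colitis, and that of Kirrel2 is known only as a bound.

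The rule made no use of position. Of the 56 genes, 8 had another member within 100 kb, in 4 pairs. Besides the pairs above these were Gsta3 with Khdc1a on chromosome 1, 83979 bases apart, and Hopx with Hopxos, which overlap on opposite strands. Both members of each pair differed in the same direction in colitis. How often other genes of the series lie this close, or differ alike, was not counted, so nothing is read from the number of pairs. Neighbours outside the table varied in colitis. Nfkbid beside Aplp1 differed by −0.26, Phldb1, which overlaps Treh, by 0.04 and Cct3 near Bglap3 by −0.05. Khdc1c beside Khdc1a had a higher mean in KO colitis, but its WT colitis mean was under 3 reads, so no size is given. Car1 near Car2 differed by −0.81 and Cbr2 near Dcxr by 0.70.

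Dlk1, a transmembrane Notch-like ligand of fetal tissue and fat precursors, is made from an imprinted cluster on chromosome 12. As geometric means it had 4.29 RPM in WT control, 13.8 in KO control, 4.27 in WT colitis and 22.2 in KO colitis, 3.22-fold and 5.19-fold higher in KO. Of the other genes of the cluster, Meg3 was higher in untreated KO by 0.65, and in colitis the difference was −0.05. Rian was higher by 0.60 and 0.73, and Dio3, which was under 3 reads in both control groups, was lower in KO colitis by 1.19. All 4 genes of the cluster with means thus had a higher mean in untreated KO, and 2 of the 4 in KO colitis.

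Bambi codes for a pseudoreceptor that dampens TGF-beta and BMP signalling. Its means were 4.00 in WT control, 6.14 in KO control, 3.31 in WT colitis and 5.12 in KO colitis, so KO was 4.42-fold higher in control and 3.50-fold higher in colitis. Bambi fell by 1.02 with colitis in KO. Mt1, a metallothionein that binds zinc and copper, had 6.92, 8.44, 7.09 and 8.34 in the same order. The neighbouring Mt2, a second metallothionein, was lower in KO colitis by 0.64 and differed by −0.12 in control. Gsta3 had 4.85, 5.82, 5.10 and 6.34, and it rose by 0.52 with colitis in KO. Over the 10 glutathione S-transferases with means, 5 were higher in KO colitis by at least 0.5 and none lower by that much, and in control Gsta3 alone was. The share of all genes that far apart in colitis was not counted. The family and pathway lists also hold members, which this contrast chose, so such counts here and below only describe the lists.

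The remaining genes with an untreated offset were mostly of low level. Mctp1, a calcium-binding membrane protein, had 3.58 in WT control, 4.67 in KO control, 3.83 in WT colitis and 4.79 in KO colitis. In the same order Nxf7, a relative of RNA export factors, had 2.14, 3.23, 1.95 and 3.50. Gm4961, a long intergenic RNA, had 0.16, 1.79, −0.92 and 1.46. The transcript 2610524H06Rik differed by 1.24 in control and by 1.19 in colitis, and it rose by 0.55 with colitis in KO. It lies within another gene on the same strand, with which reads may be shared. Hoga1, a mitochondrial enzyme of hydroxyproline breakdown, was higher by 0.52 and 1.02.

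Trpv6, the calcium channel through which enterocytes take up dietary calcium, combined a small offset with a large one in colitis. Its mean was −0.03 in WT control, 0.68 in KO control, −0.38 in WT colitis and 2.58 in KO colitis. Trpv6 rose by 1.90 with colitis in KO, where the WT change was −0.35, and it was 7.79-fold higher in KO colitis. Of the other calcium uptake genes with means, the vitamin D receptor gene Vdr differed by 0.21 and the calcium pump gene Atp2b1 by 0.06 in colitis.

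Lower in both conditions were, besides Smarcad1, only 4 genes at this size. Mb21d2, a gene of the cGAS-like family, had 4.44 in WT control, 3.17 in KO control, 5.08 in WT colitis and 3.75 in KO colitis. It rose with colitis in both genotypes, by 0.64 in WT and 0.58 in KO, so the genotypes kept their distance. Plcd3, a phospholipase C, differed by −0.71 in control and by −1.05 in colitis. Tiam1, an exchange factor for the small GTPase Rac, was lower by 0.55 and 1.01, and AI481877 by 0.53 and 0.97. None of Plcd3, Tiam1 and AI481877 is listed for any other comparison.

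**Figure D2:**
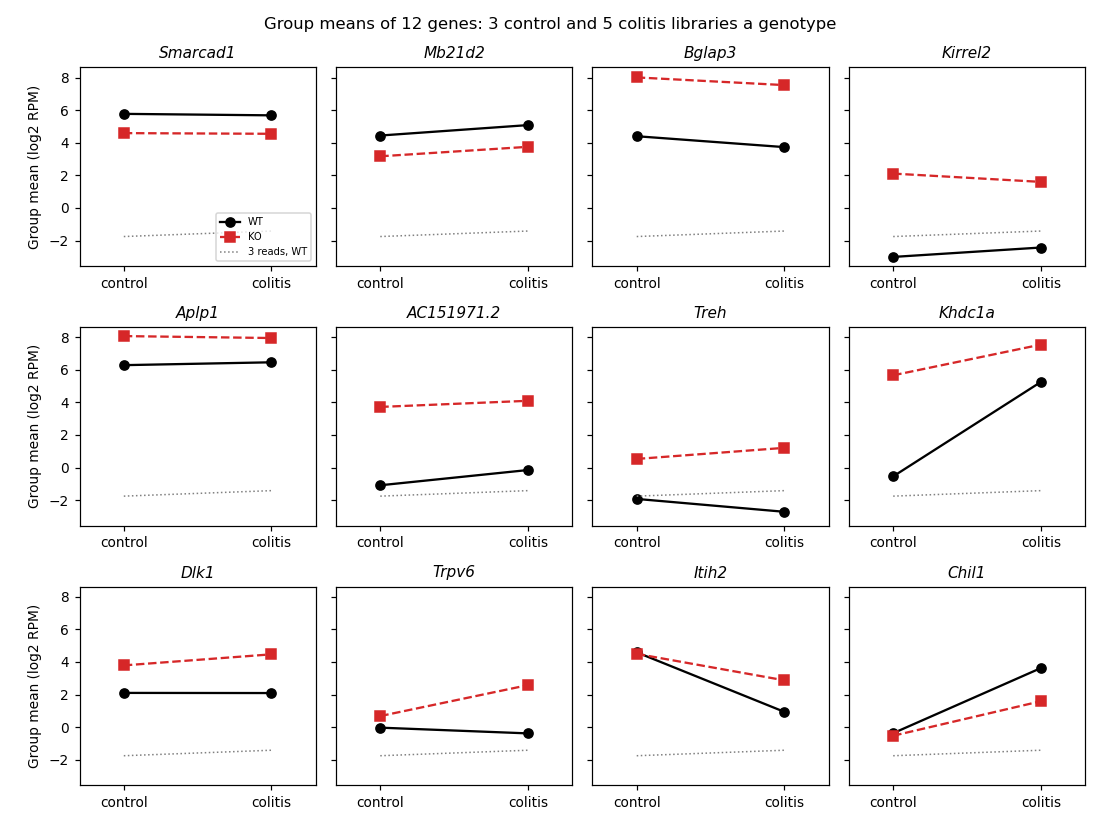
Group means (log2 RPM, y axis) of 12 genes in control and colitis (x axis), for WT (black circles, solid lines) and KO (red squares, dashed lines), with 3 reads a WT library as a dotted line. Lines join means of different mice, and no error can be drawn. Smarcad1, Mb21d2, Bglap3, Kirrel2, Aplp1 and AC151971.2 keep the genotypes apart in both conditions, whereas Itih2 and Chil1 part in colitis.

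The change with colitis was then examined. Of the 56 genes, 25 (44.6%) are listed by the authors for colitis in WT, where 63.1% of the 5171 genes are, and 14 (25.0%) are listed in KO, where 78.4% of all are. Of these, 8 are listed in both genotypes, 17 in WT alone and 6 in KO alone, and 25 in neither. A change of at least 1 log2 unit was seen in 12 members in WT (21.4%, against 31.4% of all genes with means) and in 5 in KO (8.93%, against 28.5%). Nearly all of the 5171 genes are in the tables because they passed a comparison of colitis with control, so these shares are no baseline of all expressed genes. Being listed in 1 genotype alone does not show that the genotypes differ, and that difference was not tested.

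The arithmetic of the 4 means ties these values together. The KO minus WT difference in colitis equals the difference in control plus the KO change minus the WT change. Where the control difference is near 0, a member picked for a difference in colitis must therefore change differently with colitis in the 2 genotypes. The choice also favours low WT colitis means among genes that were higher in KO colitis, and high ones among the lower genes, so the counts below describe the members and support nothing beyond them. Among the 35 genes with a control difference under 0.5, the change was smaller in size in KO in 26, and it was in 49.8% of all 4783 genes with such a control difference. All 12 members with a WT change of at least 1 changed less in KO, and 72.2% of the 1625 such genes among all did.

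**Figure D3:**
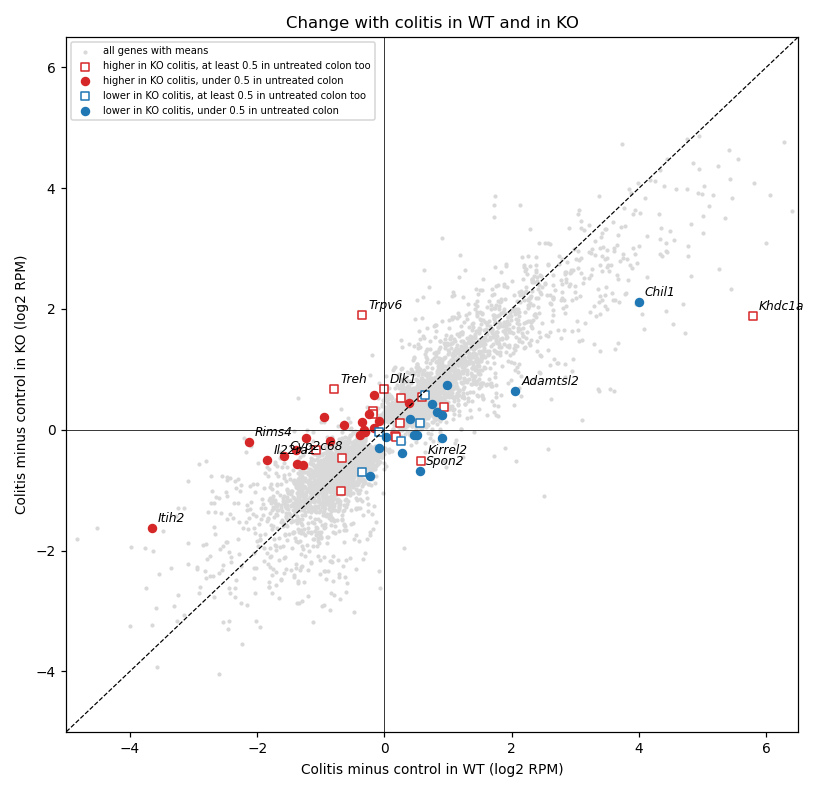
Colitis minus control (log2 RPM) in WT (x axis) and in KO (y axis) for all genes with means (grey, of which 10 lie outside the axes) and for the 56 genes by direction and by the untreated difference. The dashed line marks equal change. Of the filled red points, 19 of 20 lie at a negative WT change, and of the filled blue points 13 of 15 lie at a positive one. Of all 5171 genes, 2793 have a positive WT change.

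Of the 20 genes that were higher in KO colitis with a smaller offset in control, 19 had a lower mean in WT colitis than in WT control. Among all 5171 genes, 2793 had a higher mean in WT colitis than in WT control. Colitis minus control had a median of −0.75 in WT and of −0.07 in KO over these 20 genes. Itih2, a heavy chain of the inter-alpha-trypsin inhibitors that binds hyaluronan, had the largest change. Its mean was 4.59 in WT control, 4.50 in KO control, 0.94 in WT colitis and 2.87 in KO colitis, a fall of 12.6-fold in WT and of 3.08-fold in KO. Its neighbour Itih5 differed by 0.41 in colitis. Rims4, of a family that regulates release from synaptic vesicles, had 4.59, 4.34, 2.46 and 4.14. It fell by 2.13 in WT, while the KO change was −0.20.

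Oxidation, conjugation and small-molecule metabolism made up the largest role among the members, with 13 genes, 11 of them higher in KO colitis. Cyp2c68, a cytochrome P450, had 6.83 in WT control, 6.85 in KO control, 5.25 in WT colitis and 6.41 in KO colitis. It fell by 1.58 in WT. Ugt2b35, which attaches glucuronic acid to steroids and drugs, had 6.11, 6.36, 4.84 and 5.78 and fell by 1.28 in WT. Maob, which oxidises amines, had 6.19, 6.19, 4.82 and 5.63 and fell in both genotypes, by 1.37 in WT and 0.56 in KO. Eno3, the muscle form of the glycolytic enzyme enolase, had 7.73, 7.82, 6.35 and 7.48 and fell by 1.39 in WT. In each of these 4 genes the control means lay within 0.25 of each other and the WT colitis mean was the lowest of the 4.

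Their relatives did not all differ in the same way. Cyp2c69 was higher in KO colitis by 1.24, and Cyp2c55, at a much higher level, was lower by 0.20. Of the glucuronosyltransferases, Ugt2b34 differed by 0.42 and Ugt2b36 by −0.17. Other members of this role that were higher in KO colitis were Ttpa (vitamin E transfer, 0.96), Kyat3 (kynurenine metabolism, 0.64), Idh2 (mitochondrial isocitrate dehydrogenase, 0.48) and Dcxr (xylulose reductase, 0.47). None of the first 3 is listed for colitis, and Dcxr rose in both genotypes. Of the 2 genes of this role that were lower in KO colitis, Gpx3, a secreted glutathione peroxidase, rose by 0.83 in WT, and Plin3 had changes of 0.02 and −0.12.

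Of the 17 enterocyte transport genes with means, 13 had a higher mean in KO colitis and 4 a lower one. Of all 5171 genes, 2449 had a higher one. Car2, a carbonic anhydrase that supplies ions for exchange, had 10.57 in WT control, 10.71 in KO control, 9.72 in WT colitis and 10.52 in KO colitis, and fell by 0.86 in WT. Slc6a4, the serotonin transporter that clears serotonin from the gut wall, had 4.91, 4.97, 3.97 and 5.18, and fell by 0.94 in WT. Over these 17 genes, 8 were higher in KO colitis by at least 0.5 and 1 lower. The members Car2, Slc6a4 and Trpv6 are among the 8 and were chosen by this same contrast. The median difference over the 17 genes, members included, was 0.40 in colitis and −0.01 in control. The median of all 5171 genes was −0.01 in colitis and 0.005 in control. Slc26a3 and Aqp8 (0.59 each), Trpm6 (0.96) and Slc20a1 (0.75) were also among the 8, and the 1 lower was Car1 (−0.81). Among the 7 serotonin genes, Ddc differed by 0.47, Tph1, which makes serotonin, by 0.05, and the receptor gene Htr3a by −0.55.

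Of the remaining members, 3 proteases and lipid hydrolases outside the matrix and signalling roles were higher in KO colitis, among them Cpq. Hpn, a membrane serine protease, had 3.83 in WT control, 4.16 in KO control, 2.60 in WT colitis and 4.03 in KO colitis, and fell by 1.24 in WT. Plbd1, a phospholipase B-like lysosomal protein, was higher by 0.69 and fell by 0.64 in WT. The homeodomain-only gene Hopx (0.54) and its antisense transcript Hopxos (0.60) overlap by 412 exon bases, and without a stated strand setting their reads cannot be told apart. Txndc16, a thioredoxin-domain protein of the endoplasmic reticulum, differed by 0.52.

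Il22ra2 codes for a secreted receptor that binds interleukin 22 and keeps it from its target cells. Its mean was 3.32 in WT control, 3.41 in KO control, 1.48 in WT colitis and 2.91 in KO colitis. It fell by 1.84 in WT, and the KO change was −0.51, so that KO was 2.69-fold higher in colitis. Il22 itself had no read in any control library, and −0.24 in WT colitis and −0.52 in KO colitis. The interleukin 22 targets Reg3b and Reg3g, antimicrobial lectins of the epithelium, were lower in KO colitis by 1.51 and 0.96. In untreated KO they were higher, by 1.11 and 0.43, and neither is a member. The membrane receptor gene Il22ra1 differed by −0.10 in colitis.

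Of the 15 genes that were lower in KO colitis with a smaller offset in control, 13 had a higher mean in WT colitis than in WT control. Among all 5171 genes, 2793 did. Over these 15 genes the median of colitis minus control was 0.56 in WT and −0.08 in KO. Chil1, a chitinase-like secreted protein made by macrophages, neutrophils and injured epithelium, had the largest difference. Its mean was −0.37 in WT control, −0.53 in KO control, 3.62 in WT colitis and 1.59 in KO colitis. Chil1 rose 15.9-fold in WT and 4.34-fold in KO. Isx, an intestine-specific homeobox gene, had 6.10, 6.20, 7.00 and 6.06, and rose by 0.91 in WT.

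Genes of the extracellular matrix, its processing and inhibitors formed the main group among these. Of the 8 members of that role, 7 were lower in KO colitis, with Chil1 counted among the 7. Adamtsl2, a secreted protein that binds fibrillin and restrains TGF-beta, had 0.38 in WT control, 0.69 in KO control, 2.43 in WT colitis and 1.33 in KO colitis, and rose by 2.06 in WT. Spon2, a matrix protein that binds bacteria and helps leukocytes move, had 6.66, 6.84, 7.22 and 6.16. It rose by 0.56 in WT, and the KO change was −0.68. Serpinh1 (HSP47), the chaperone of collagen, had 7.68, 7.55, 8.19 and 7.47. Loxl2, which cross-links collagen, rose in both genotypes, by 0.74 in WT and 0.42 in KO. Col6a3, a chain of collagen VI, was lower by 0.67 and is not listed for colitis in either genotype. Mmp19, a matrix metalloproteinase, was lower by 0.71 and rose by 0.91 in WT. It shares 789 exon bases with Tmem198b on the other strand, which differed by −0.31.

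The wider matrix lists leaned the same way. All 16 collagen and collagen processing genes with means were lower in KO colitis, 7 of them by at least 0.5, with a median of −0.49 in colitis and −0.05 in control. Of all 5171 genes, 2449 were higher in KO colitis, and the share past 0.5 was not counted. Among those outside the table were Lox (−0.99), Col1a1 (−0.63) and Col5a1 (−0.59). Of 14 matrix glycoproteins and proteoglycans 10 were lower, 6 by at least 0.5, with a median of −0.40. These lists were written with the members known and include them. Of 7 fibroblast markers, 6 have means and all 6 were lower in KO colitis. Col1a1, Col1a2, Dcn and Lum among them are also in the matrix lists, so these are largely the same values. Pdpn (−0.58) and Thy1 (−0.43) are in neither matrix list. The summed level of the 6 was 1398 RPM in WT control, 1361 in KO control, 2730 in WT colitis and 2057 in KO colitis. The part of fibroblast number in the matrix differences was not tested.

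**Figure D4:**
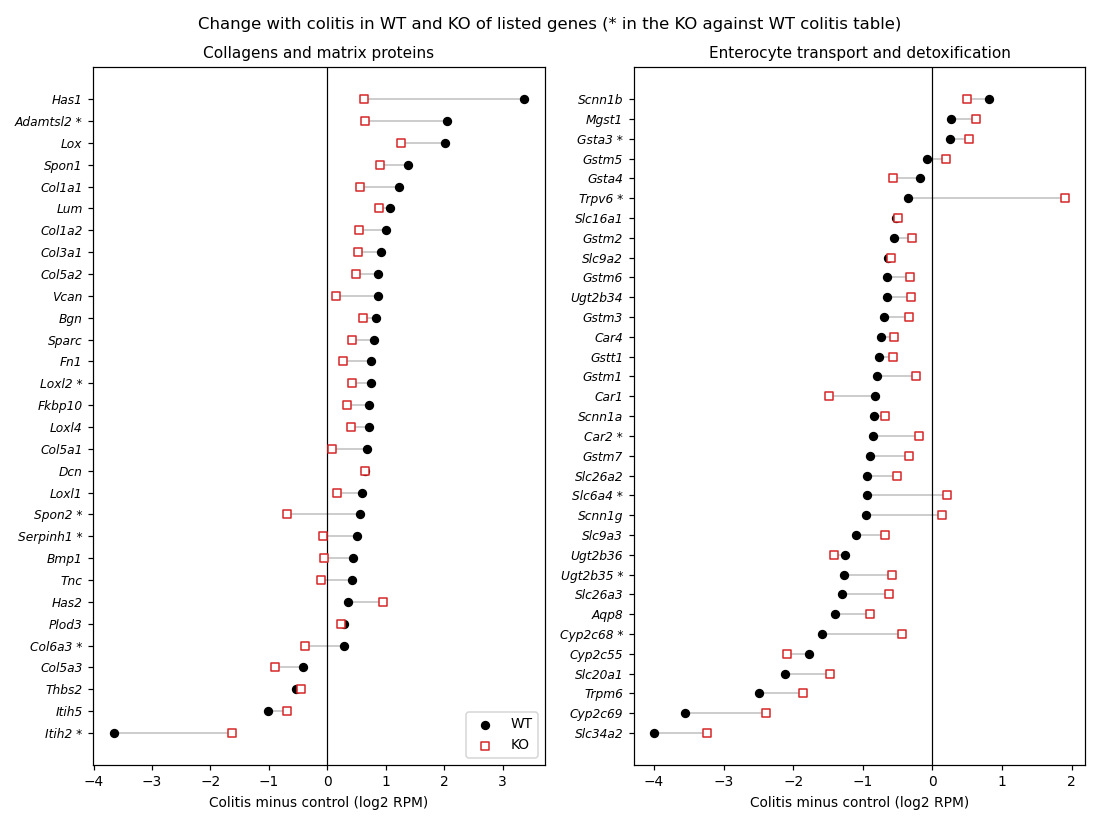
Colitis minus control (log2 RPM, x axis) in WT (black circles) and KO (red squares) for genes (y axis) of the matrix lists (left) and of the enterocyte transport and detoxification lists (right), with members starred. No error can be drawn from group means. For matrix genes such as Col1a1 and Vcan the WT point lies further to the right than the KO point, and for transport genes such as Slc26a3 and Trpm6 further to the left.

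Most neutrophil markers differed in the same direction as Chil1. Of the 8 markers, 6 have means, and 5 of these were lower in KO colitis by at least 0.5. S100a8 had 5.54 in WT colitis and 2.88 in KO colitis, and S100a9 6.36 and 3.60. None of the neutrophil markers is a member, so the authors do not list them for KO against WT in colitis. Ly6g, which differed by 0.19 in colitis, carried most of the summed level of the 6 genes, which was 95.9 RPM in WT control, 102 in KO control, 395 in WT colitis and 286 in KO colitis. Without Ly6g the other 5 summed to 3.90, 3.93, 188 and 49.7 RPM. For the 6 macrophage markers it was 344, 368, 733 and 685 RPM, and for the 6 T cell markers 19.0, 18.2, 61.1 and 64.5 RPM. Their part in the Chil1 difference was not tested.

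Secreted signals, receptors and their modulators were split, with 4 of the 7 lower in KO colitis and Bambi, Dlk1 and Il22ra2 higher. Pmepa1, a TGF-beta target that feeds back on the pathway, was lower by 0.54 and rose in both genotypes, by 0.98 in WT and 0.74 in KO. Of 10 TGF-beta response genes with means, 4 were lower in KO colitis by at least 0.5 and 1, Bambi, was higher. Bambi and, among the 4, Pmepa1 and Loxl2 are members, chosen by this same contrast. Wnt5a, a Wnt ligand of stromal cells, was lower by 0.46 and rose by 0.47 in WT, and Wnt4 was lower by 0.44. Gja1 (connexin 43), a gap junction protein, was lower by 0.42 and rose by 0.40 in WT.

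Ret and Ednrb, receptors that guide enteric nerve precursors, are not listed for colitis in WT. Ret, the receptor for glial cell line-derived factors, had 5.41 in WT control, 5.29 in KO control, 5.18 in WT colitis and 4.52 in KO colitis, and fell by 0.77 in KO. Ednrb, the endothelin receptor type B, had 4.98, 4.69, 4.90 and 4.39. Of 8 enteric neuron and glia markers, 4 have means and all 4 were lower in KO colitis, Elavl4 by 0.59 and the others by less than 0.5. All 4 were lower in untreated KO as well, with a median of −0.22 there and −0.23 in colitis. Their summed level was 138 RPM in WT control, 118 in KO control, 73.9 in WT colitis and 64.4 in KO colitis. Its part in the Ret difference was not tested.

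Markers of the epithelium were less uniform. Of the 6 colon enterocyte markers with means, Slc26a3 and Aqp8 were higher in KO colitis, and Car1 and Guca2a were lower, by 0.81 and 0.70. Car1, Car4, Slc26a3 and Aqp8 are also in the transport list, so these are partly the same values. The summed level of the 6 markers was 11979 RPM in WT control, 11690 in KO control, 5810 in WT colitis and 5436 in KO colitis. It was thus no higher in KO colitis than in WT colitis. Of the goblet cell markers, Clca1 alone has means, and it differed by −0.82 in control and −0.24 in colitis. The 3 smooth muscle markers with means differed by between −0.05 and 0.09 in colitis.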

How the data were processed

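RNA-seq of whole colon was made by the authors on BGISEQ-500 after depletion of DSS from the RNA by lithium chloride. Per the submitters' notes and the study's methods, reads were mapped with HISAT2 2.1.0 to GRCm38 and uniquely mapped reads were kept. Reads over ribosomal RNA were removed because of contamination in 3 samples, which are not named, and reads over exons of merged transcripts were quantified in SeqMonk. Labels and methods differ on single or paired ends, and a strand setting is not given in the sources used here. The authors deposited 4 tables of genes that passed DESeq2 at an FDR of 0.05, each with group means of log2 RPM and with the p-value of that test after adjustment. The deposited p-value column was not used or compared.

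Differences of the authors' log2 means were taken with Python 3.11.15 and pandas 2.3.3. Means of a gene were identical wherever tables shared it. Tables hold 1 mean a group, so no test was run. The depth of each group was read from its lowest means, which lie on steps of whole reads with 0 reads set to 0.9, and this was tested on simulated means. A mean of 3 reads a library was the floor for folds, and floors cover counting error only. Exon lengths came from GENCODE M21 (55 of 56 genes matched, 1 by position).

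All 56 genes are named by role. Values in all groups were kept for the genes given for the comparison, the 10 largest rises and 5 largest falls in KO colitis, genes listed in untreated colon and genes with a WT change of at least 1. The members and the lists of related families and cell type markers were chosen with earlier results of these data known. The design text of the series speaks of small intestine and the sample labels of colon. A marker gene was left out of its list and is not reported here.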

Additional observations from a re-analysis of the deposited data

How the results depend on the processing

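Without single libraries, a value was taken to have moved when it changed by over 0.2 log2 units, and a count when it changed by over 1.5 times. With a difference of at least 1 required, 22 genes were higher and 7 lower in KO colitis instead of 36 and 20. With a control difference of at least 0.2 required, the same sign in untreated colon held for 31 genes instead of 49. The KO minus WT difference in untreated colon, signed by the direction in colitis, had a median of 0.23 over the 56 genes, and their mean was 0.79. Genes that changed with colitis numbered 12 in WT and 5 in KO at a change of 1, 30 and 20 at a change of 0.5, and 25 and 14 by the authors' lists. The other 12 of the 20 alternatives stayed within these limits, among them means raised to 3 reads, centring on the median of all genes and leaving out the 12 genes listed in untreated colon. A smaller change in KO was found in 40 of the 56 genes, and in 33 when both genotypes were set against the mean of the 2 control groups. The share over all genes with means was not counted and the choice of members bears on this count, so nothing is read from it. No replicate could be left out and no paired analysis was possible because the tables hold group means alone. Floors and folds of genes with few reads, Kirrel2 and Treh above all, are limited by depth.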
